A study of Mus musculus with 41 samples.

Results

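Genomic imprinting leaves a gene expressed from only the maternal or only the paternal copy, and many imprinted genes act on fetal growth. The imprinted growth genes described here were chosen by symbol with no expression value used, although earlier results of these data were known. They were a list of 10: Igf2, H19, Dlk1, Meg3, Cdkn1c, Grb10, Peg3, Mest, Plagl1 and Igf2r. Of these, 9 had at least 1 probe that the array annotation gives to that symbol alone, 22 probes in all, out of 19057 genes and 34885 such probes on the array. H19 had no such probe and is named only. Plagl1 had 3 probes, none of which was above background on every array of any group, so 8 genes entered at least 1 test.

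The arrays came from C57/BL6NHsd mouse offspring at postnatal day 4, whose dams had received metformin or vehicle by mouth through most of gestation. In the arrays labelled study I the dams were fed a regular diet (RD), and the arrays covered whole brain of males and liver of males and females, with 3 control and 3 metformin animals for each tissue and sex. In those labelled study II the dams were fed a high fat diet (HFD) before and during gestation and were returned to RD around birth, and the arrays covered liver (6 control, 6 metformin) and subcutaneous adipose tissue (SAT; 6 control, 5 metformin) of males. The comparisons ask how metformin before birth, the maternal diet and the tissue each relate to the members' levels. Diet therefore cannot be told apart from study, and every letter code in the animals' names held 1 treatment: 1R and 1T (control) and 10K and 3R (metformin) on HFD, B and C (control) and E and F (metformin) on RD. SAT RNA was extracted with another kit than liver and brain RNA, so that for SAT against liver, tissue and kit cannot be told apart.

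The share of the 45281 probes above background (detection p under 0.05) was 43.6 to 46.1% in brain, 36.6 to 41.6% in RD liver, 30.97 to 39.9% in HFD liver and 29.9 to 43.4% in SAT. The tissue labels held: the mean log2 level of the hepatocyte markers was 11.2 or more in every liver and at most 7.44 elsewhere, adipocyte markers were at 11.4 or more in SAT and at most 6.64 elsewhere, and neuron markers were at 9.94 or more in brain and at most 6.65 elsewhere, although Snap25 and Nefl were not detected even in brain. The HFD control male 1T-1 stood apart from its group. It was set apart on 7.01% of 7990 genes in liver, against 0.225 to 1.63% for the other 5 controls, and on 8.50% of 7174 genes in SAT, against 0.0697 to 2.97%. The SAT arrays of controls 1R-4 and 1T-1 also had the lowest shares of probes detected, 29.9% and 31.6%, against 40.6 to 43.4% for the rest of SAT. Members' values that moved most without these arrays are given with and without them. In whole tissue, fewer cells of a type and less RNA per cell cannot be told apart, the arrays do not separate the parental alleles, and the p-values measure only the spread between these animals.

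The members fall into opposed groups. Igf2, a fetal growth factor, Dlk1, a transmembrane and secreted protein that restrains adipocyte differentiation, Peg3, a zinc finger protein, Mest, a protein of the alpha/beta hydrolase fold, and Plagl1, a zinc finger transcription factor, are expressed from the paternal copy. H19 and Meg3, long non-coding RNAs, Cdkn1c, an inhibitor of cyclin-dependent kinases, and Igf2r, the receptor that takes IGF2 to the lysosome for breakdown, are expressed from the maternal copy. Grb10, an adaptor that dampens signalling from the insulin and IGF1 receptors, is expressed from the maternal copy in most mouse tissues and from the paternal copy in neurons. Most of these genes are high in the fetus and decline in the first weeks after birth.

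Several members are neighbours in GRCm38.p6 as RefSeq gives it. H19 (chr7:142575530-142578146) and Igf2 (chr7:142650768-142666816) are 72622 bases apart, with Cdkn1c (chr7:143458339-143461059) further along the same cluster. Dlk1 (chr12:109452485-109463336) and Meg3 (chr12:109540996-109571729) are 77660 bases apart and share another cluster. Mest lies at chr6:30733506-30748466, Peg3 at chr7:6703892-6730462, Plagl1 at chr10:13090832-13131694, Grb10 at chr11:11930499-12037428 and Igf2r at chr17:12682406-12769706.

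At some imprinted genes, though not all, the CG dinucleotides of a promoter are methylated on 1 parental copy. No methylation was measured here, so a CG in capitals marks sequence only. RefSeq gives 15 transcription starts for 8 of the listed genes, and the 5 windows shown are those of Mest, Peg3 and Dlk1, whose brightest probes differed most by diet below, and of Meg3, the neighbour of Dlk1; each runs from 250 bases before the start to 50 bases after it, 5′ to 3′ on the gene's strand, with CG (the same on both strands) in capitals. Mest is shown at its first and second starts, which lie 4544 bases apart, because its probes disagreed below. The positions of the array probes were not used here, so no probe is assigned to a start.
Mest start 1 (chr6:30733256-30733555, plus strand): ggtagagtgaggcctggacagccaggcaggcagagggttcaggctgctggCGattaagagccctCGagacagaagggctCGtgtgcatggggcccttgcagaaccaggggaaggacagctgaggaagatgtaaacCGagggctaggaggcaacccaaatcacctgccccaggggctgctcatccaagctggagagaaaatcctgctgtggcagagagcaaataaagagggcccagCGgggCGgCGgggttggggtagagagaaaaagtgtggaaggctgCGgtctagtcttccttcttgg
Mest start 2 (chr6:30737800-30738099, plus strand): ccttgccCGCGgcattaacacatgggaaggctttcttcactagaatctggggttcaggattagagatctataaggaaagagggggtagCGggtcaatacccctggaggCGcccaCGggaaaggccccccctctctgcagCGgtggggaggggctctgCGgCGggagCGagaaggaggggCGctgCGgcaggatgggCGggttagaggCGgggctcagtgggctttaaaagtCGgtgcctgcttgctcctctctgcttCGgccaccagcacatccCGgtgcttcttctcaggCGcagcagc
Dlk1 (chr12:109452573-109452872, plus strand): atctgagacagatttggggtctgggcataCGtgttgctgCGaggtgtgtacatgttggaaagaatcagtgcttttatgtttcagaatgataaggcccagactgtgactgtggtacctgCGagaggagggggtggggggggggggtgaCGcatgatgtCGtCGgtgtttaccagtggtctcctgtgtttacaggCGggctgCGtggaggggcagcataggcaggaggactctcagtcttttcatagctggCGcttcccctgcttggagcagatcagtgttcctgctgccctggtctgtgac
Meg3 start 1 (chr12:109540746-109541045, plus strand): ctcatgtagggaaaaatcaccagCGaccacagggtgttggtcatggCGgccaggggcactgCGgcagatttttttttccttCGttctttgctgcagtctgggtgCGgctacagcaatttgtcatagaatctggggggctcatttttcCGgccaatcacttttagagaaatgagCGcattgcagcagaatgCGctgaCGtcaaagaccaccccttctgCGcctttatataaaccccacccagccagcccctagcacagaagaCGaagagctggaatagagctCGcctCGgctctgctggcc
Peg3 (chr7:6730370-6730669, minus strand): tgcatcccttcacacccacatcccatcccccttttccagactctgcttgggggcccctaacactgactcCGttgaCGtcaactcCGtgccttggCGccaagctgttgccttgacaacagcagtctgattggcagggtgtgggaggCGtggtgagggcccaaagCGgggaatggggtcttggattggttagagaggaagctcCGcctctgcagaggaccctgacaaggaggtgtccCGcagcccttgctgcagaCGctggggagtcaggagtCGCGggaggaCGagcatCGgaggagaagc
The second Mest start held 17 CG and the first held 8. The Meg3 and Peg3 windows held 13 each and the Dlk1 window held 9. Over all 32851 promoter windows of this length the median was 7; 31.4% held at least 17, 37.9% at least 13, 45.8% at least 9 and 48.7% at least 8. The second Mest window is thus the richest in CG of the 5, and none of the 5 is rare among promoters by this count. Of the windows not shown, the first start of Grb10 held the most, 45 CG, and 1.93% of all promoter windows held at least as many.

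Igf2, the growth ligand, was above background on all 41 arrays by its probe ILMN_2597769. Its raw intensity ran from 8837 to 58890 and reached 93.75% of the highest signal on its array, close to the top of the scale. In the RD male control livers it stood at 15.35, 15.22 and 15.45 on the log2 scale, a mean of 15.34 ± 0.11 (SD, n = 3). The HFD control livers ran from 15 to 15.47 (median 15.18), and their SAT from 14.69 to 15.18 (median 15.02). Brain controls were lower, at 12.96, 13.08 and 12.79. The HFD liver groups overlapped SAT, the RD control livers of both sexes lay above every SAT array, and every brain lay below every liver. The probe ranked 12 from the brightest in liver and 33 in SAT, where quantile normalisation leaves little room for arrays to differ. The narrow Igf2 intervals given below for liver and SAT carry that limit.

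**Figure D1:**
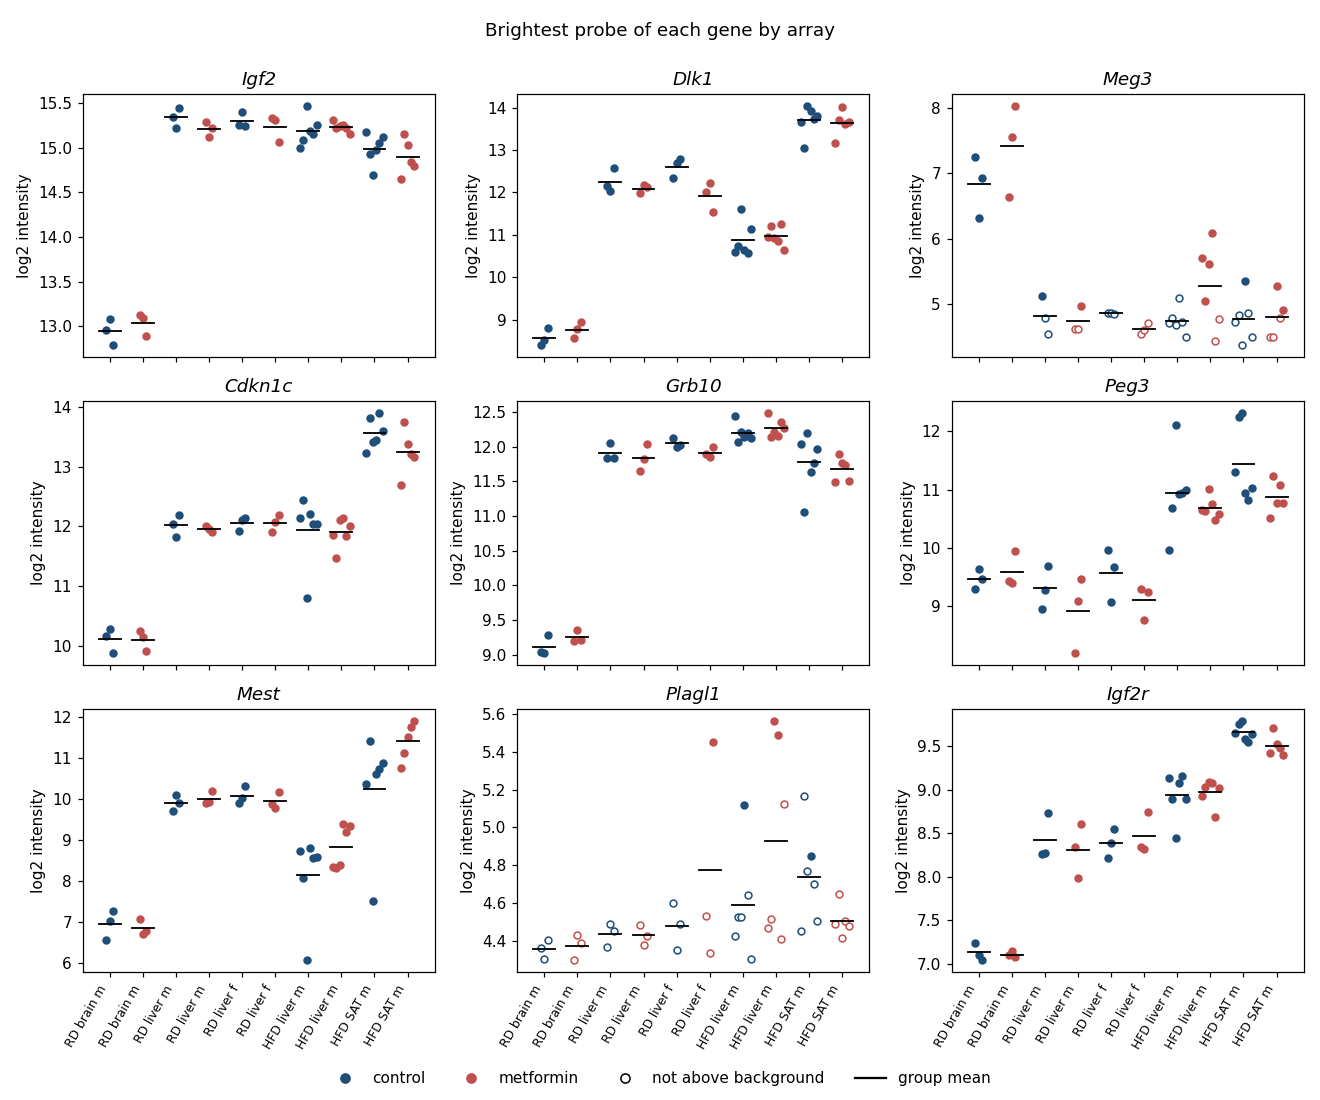
Log2 normalised intensity of each member on each of the 41 arrays, by tissue, diet, sex and treatment, for the probe of each gene that was brightest over all arrays; blue is control, red is metformin, open points are not above background and bars are group means. Igf2 sits near 15 in every liver and SAT array and near 13 in brain, whereas Meg3 rises above the background level in every brain array and in few others.

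Against liver of the same RD male controls, brain was lower for 6 of the 8 members tested and higher for 1. The 1 higher, Meg3, entered the test only because every brain array detected it. Of all genes tested in this comparison 37.5% were lower and 41.3% higher, and the members' median difference was -2.16 against 0.07 over all genes. Igf2 was lower in brain by a log2 difference of -2.40 (SE 0.12; adjusted p = 3.67e-10, limma), a measured 5.27-fold difference from liver values close to the top of the scale. Its lysosomal receptor Igf2r was lower in brain as well: brain controls stood at 7.25, 7.11 and 7.05, liver controls at 8.26, 8.27 and 8.73, and the difference was -1.29 (SE 0.16; adjusted p = 6.69e-06, limma), although it was 0.03 when each tissue was normalised on its own, a setting that moved the median of all genes to 1.16.

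The 2 genes of the Dlk1 and Meg3 cluster differed in opposite directions. Dlk1 (ILMN_2771738) stood at 8.41, 8.54 and 8.81 in brain and at 12.16, 12.03 and 12.57 in liver, a difference of -3.67 (SE 0.15; adjusted p = 5.73e-11, limma), or 12.7-fold lower in brain. Its other probe gave -4.04. Meg3 (ILMN_2601176) stood at 7.97, 6.96 and 7.38 in brain and at 4.97, 4.69 and 5.09 in liver, where 2 of the 3 arrays were above background, and the measured difference was 2.52 (SE 0.29; adjusted p = 3.21e-06, limma). A second Meg3 probe, above background in 1 of the 3 livers, gave 2.01. Both probes entered the test only because every brain array detected them, so that the size of the difference is limited by the liver background. The third probe was above background on none of the 41 arrays. Neither Dlk1 nor Meg3 had overlapping groups.

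The growth inhibitors were also lower in brain. Grb10 (ILMN_2518412) stood at 9.04, 9.03 and 9.28 in brain and 11.83, 12.05 and 11.83 in liver, a difference of -2.79 (SE 0.13; adjusted p = 1.61e-10, limma). Cdkn1c stood at 10.16, 10.28 and 9.88 in brain and 12.04, 11.82 and 12.20 in liver, a difference of -1.91 (SE 0.14; adjusted p = 2.36e-08, limma). The groups did not overlap for either gene, and every setting tried kept both directions. Mest was lower in brain on all 3 probes, by -2.96 (SE 0.17; adjusted p = 1.76e-09, limma), -2.92 and -2.47. Its brightest probe here (ILMN_2846904) stood at 6.57, 7.02 and 7.27 in brain and at 9.73, 10.10 and 9.92 in liver.

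Peg3 was the member whose level did not pass the test between brain and liver. It stood at 9.29, 9.65 and 9.47 in brain and at 8.95, 9.28 and 9.69 in liver, and the difference of 0.16 (SE 0.26; 95% interval -0.40 to 0.73; adjusted p = 0.585, limma) was smaller than the spread within liver. It passed with the arrays centred on the median, at 0.75, and with each tissue normalised on its own, at 1.43. Those settings moved the median of all genes to 0.54 and 1.16, and relative to it Peg3 was at 0.21 and 0.28.

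In SAT against liver of the HFD controls, 4 of the 7 members tested were higher and 1 was lower; 40.0% of all genes tested were higher and 28.0% lower, with a median difference of 0.72 for the members and 0.14 for all genes. Dlk1, which marks preadipocytes, showed the widest gap: liver ran from 10.58 to 11.61 (median 10.70) and SAT from 13.04 to 14.04 (median 13.77), a difference of 2.81 (SE 0.17; adjusted p = 3.30e-13, limma), or 7.03-fold, and 3.11 on the other probe. Cdkn1c ran from 10.80 to 12.45 in liver (median 12.10) and from 13.23 to 13.90 in SAT (median 13.53), a difference of 1.62 (SE 0.19; adjusted p = 6.49e-08, limma). SAT was above liver on every array for both genes.

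Igf2r was also higher on every SAT array, with liver from 8.45 to 9.16 (median 8.98) and SAT from 9.55 to 9.79 (median 9.64), a difference of 0.72 (SE 0.11; adjusted p = 2.00e-06, limma). Mest differed by 1.97 (SE 0.36; adjusted p = 4.77e-05, limma) on its brightest probe in these arrays (ILMN_2642417), with liver from 7.35 to 9.66 (median 9.17) and SAT from 8.46 to 12.35 (median 11.27). These groups overlapped through animal 1T-1, and without that animal the difference was 2.14. Grb10 was the member that was lower in SAT, by -0.42 (SE 0.13; adjusted p = 0.00586, limma), with overlapping groups and with -0.76 and -0.94 on its dimmer probes. The dimmest, ILMN_1257352, was above background on 4 of the 6 SAT controls and entered the test only through the livers.

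Igf2 and Peg3 lay near the threshold between SAT and liver. Igf2 differed by -0.21 (SE 0.10; adjusted p = 0.0697, limma), and passed under 5 other settings, at -0.21 to -0.96, and without either array of animal 1R-1 (adjusted p down to 0.0345, limma). It was -0.09 without animal 1T-1 (adjusted p = 0.380, limma) and -0.11 without the SAT arrays of 1R-4 and 1T-1 (adjusted p = 0.361, limma). Peg3 differed by 0.51 (SE 0.24; adjusted p = 0.0713, limma), and by 0.57 (adjusted p = 0.0239, limma) without animal 1T-1, whose Peg3 level was the highest of the controls in both tissues; it also passed without the SAT array of 1T-2, 1T-3 or 1T-4 or the liver array of 1T-1 (adjusted p down to 0.0106, limma). Without the SAT arrays of 1R-4 and 1T-1 together it was 0.14 (adjusted p = 0.623, limma).

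**Figure D2:**
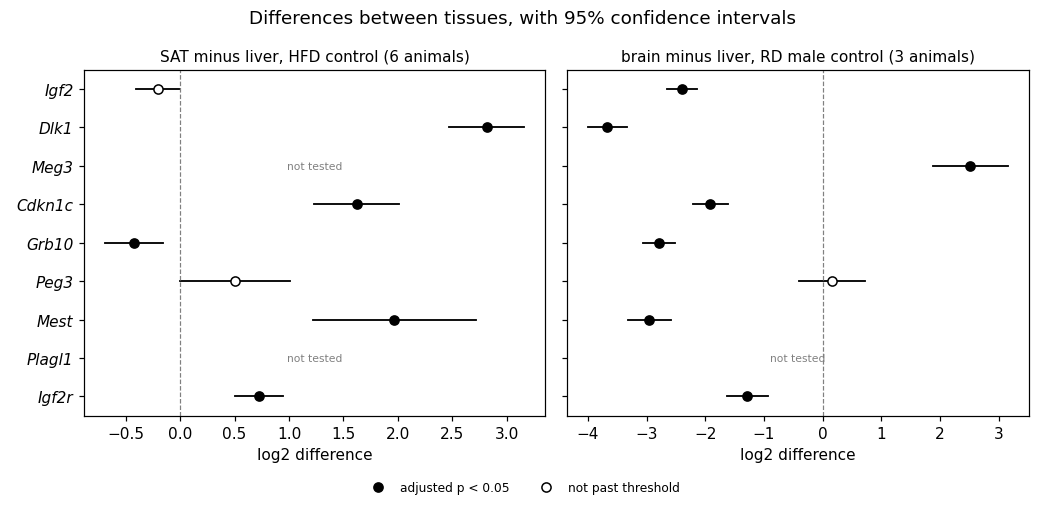
Log2 difference with its 95% interval for the brightest probe of each member tested (y axis), in SAT against liver of HFD controls and in brain against liver of RD male controls; filled points have an adjusted p under 0.05 and open points do not. Dlk1 lies at 2.81 in SAT and at -3.67 in brain. Meg3, which entered the test only because every brain array detected it, is the filled point above 0 in brain. The Igf2r point for brain moves to 0.03 when each tissue is normalised on its own.

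The tissue comparisons used livers of different animals: brain was set against RD liver and SAT against HFD liver. Dlk1, Cdkn1c, Mest and Igf2r were lower in brain than in RD liver and higher in SAT than in HFD liver. Each of these steps passed its test. The brightest Mest probe differed between the steps, and the Igf2r brain step was 0.03 with each tissue normalised on its own. Brain was not tested against SAT. The liver levels of Dlk1 and of the brightest liver probes of Igf2r and Mest differed by diet below, so a single order is not given. Peg3 had no step that passed. Grb10 was lower in brain than in RD liver and lower in SAT than in HFD liver. Igf2 was lowest in brain, and its liver and SAT levels did not pass the test of their difference.

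Between control male livers of HFD and RD pregnancies, 3 of the 7 members tested were higher with HFD, 2 were lower and 2 did not pass; 20.3% of all genes tested were higher and 16.9% lower. The members' median difference was -0.07, and that of all genes 0.04. Each difference is one of diet and study together. The lower members were Dlk1 and Mest, and the count of Mest rests on 1 of its 3 probes. Among the higher members, the count of Igf2r rests on 1 of its 2 probes. Hepatocyte markers averaged 11.5 to 11.95 in the HFD controls and 11.2 to 11.5 in the RD controls, with 8 of 10 detected on every array and Tat on none, and did not overlap. Adipocyte markers (6.32 to 6.64 with HFD, 6.09 to 6.21 with RD; 2 of 7 detected on every array of each, Adipoq, Fabp4 and Plin1 on none), endothelial markers (7.582 to 8.05 and 7.566 to 7.575; 7 of 8) and neuron markers (4.98 to 5.23, 1 of 8; 5.56 to 5.79, 5 of 8) did not overlap either; their part in these differences was not tested.

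Dlk1 was the member with the lowest p. The RD controls stood at 12.16, 12.03 and 12.57 and the HFD controls ran from 10.58 to 11.61 with a median of 10.70, so the groups did not overlap. The difference was -1.37 (SE 0.21; adjusted p = 3.32e-05, limma), or 2.58-fold lower with HFD. Its second probe gave -0.58 (adjusted p = 0.0375, limma), with overlapping groups. Without animal 1T-1, which had the highest Dlk1 of the HFD livers, the first probe gave -1.51.

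Peg3 moved the other way. It stood at 8.95, 9.28 and 9.69 in the RD controls and ran from 9.97 to 12.11 (median 10.93) in the HFD controls, a difference of 1.63 (SE 0.32; adjusted p = 0.000425, limma), or 3.09-fold higher, and 1.54 on its second probe (adjusted p = 0.00308, limma). The groups did not overlap on the first probe. Animal 1T-1 held the highest value, and without it the difference was 1.39 (adjusted p = 0.000393, limma).

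The 3 Mest probes disagreed on diet. On ILMN_2846904 the RD controls stood at 9.73, 10.10 and 9.92 and the HFD controls ran from 6.08 to 8.83 (median 8.58), a difference of -1.77 (SE 0.41; adjusted p = 0.00185, limma), with no overlap. ILMN_2642417 gave 0.03 (adjusted p = 0.955, limma) from RD controls at 8.60, 9.18 and 9.03. ILMN_2642418 gave 0.18 (adjusted p = 0.792, limma) from RD controls at 7.33, 7.54 and 7.73. The lowest HFD value was animal 1T-1 on all 3 probes. Without it the first probe gave -1.35 (adjusted p = 0.000175, limma), the second gave 0.35 (adjusted p = 0.143, limma), and the third gave 0.67 (adjusted p = 0.0129, limma) in the opposite direction, so a single direction for Mest by diet cannot be given from this array.

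Grb10 and Igf2r were higher with HFD by less. Grb10 stood at 11.83, 12.05 and 11.83 in the RD controls and ran from 12.06 to 12.44 (median 12.17) with HFD, a difference of 0.29 (SE 0.11; adjusted p = 0.0404, limma) that turned to -0.43 with the arrays centred on the median, where the median of all genes was itself -0.57. Its dim probe ILMN_1257352, at 4.70, 4.97 and 4.98 in the RD controls, where 2 of the 3 arrays were above background, and 5.33 to 7.02 in the HFD controls, gave a measured 1.31 (adjusted p = 0.00109, limma); it was above background on every array in the HFD livers alone and entered the test through them. The third gave 0.47 (adjusted p = 0.171, limma), and 0.31 without animal 1T-1. Igf2r stood at 8.26, 8.27 and 8.73 in the RD controls and ran from 8.45 to 9.16 (median 8.98) with HFD, a difference of 0.51 (SE 0.17; adjusted p = 0.0187, limma), which was -0.23 under the same centring. Its second probe (ILMN_2931096) averaged 8.244 in the RD controls and 8.595 in the HFD controls, with overlapping groups. That probe did not pass, and without animal 1T-1 it gave 0.41 (adjusted p = 0.1135, limma). Grb10 lost its call when HFD control 1R-1 or 1T-3, or RD control 1B or 5C, was left out (0.24 or more; adjusted p up to 0.147, limma), and Igf2r when RD control 1B or 3B was (0.43 or more; adjusted p up to 0.102, limma).

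Igf2 and Cdkn1c did not pass by diet. Igf2 differed by -0.14 (95% interval -0.36 to 0.07; adjusted p = 0.291, limma) and Cdkn1c by -0.07 (95% interval -0.55 to 0.41; adjusted p = 0.833, limma). Without animal 1T-1 they were -0.20 (unadjusted p = 0.0487, adjusted p = 0.106, limma) and 0.16 (adjusted p = 0.397, limma). The probes of Meg3 and Plagl1 were at or near background in these livers and were not tested.

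**Figure D3:**
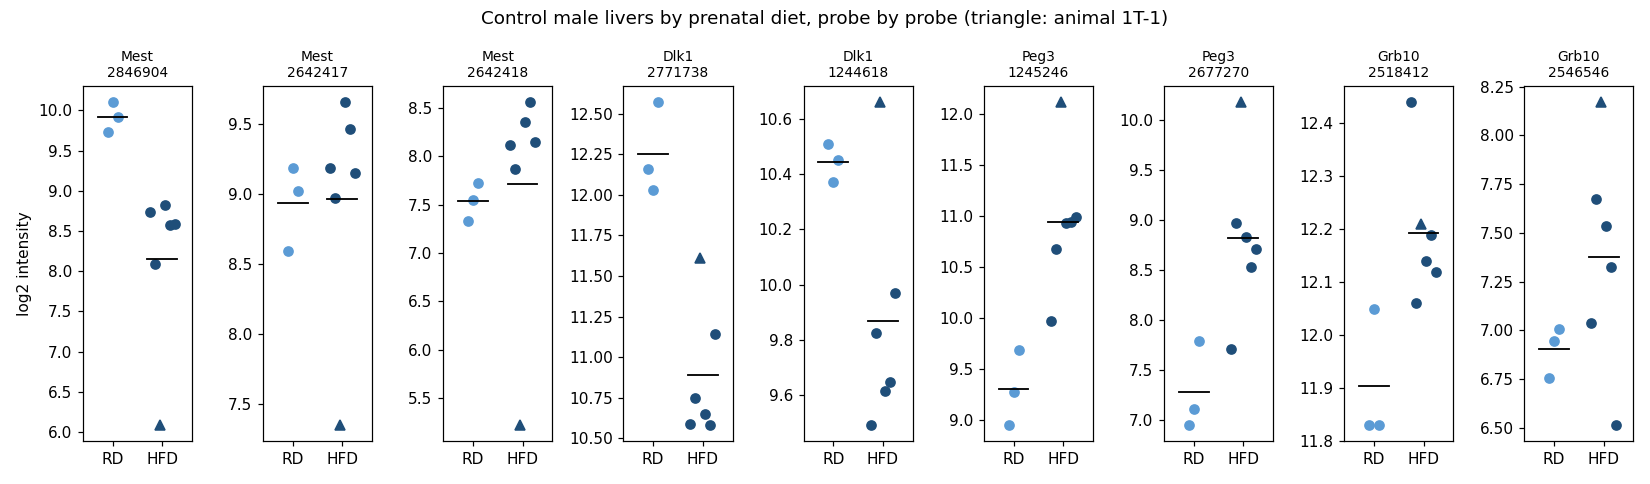
Log2 normalised intensity in each RD and HFD control male liver, 1 panel for each of 9 probes of Mest, Dlk1, Peg3 and Grb10, with y axes that differ by panel; bars are group means and the triangle is animal 1T-1. On their brighter probes the Dlk1 and Peg3 groups separate in opposite directions, and the Mest probes differ among themselves, with 1T-1 lowest on each; the difference of the brighter Grb10 probe changes sign when arrays are centred on the median.

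Metformin changed none of the 7 members tested in HFD liver after adjustment, where 0.587% of all genes passed; 1 member had an unadjusted p under 0.05, where 17.3% of all genes did. That member was Mest: the controls ran from 6.08 to 8.83 (median 8.58) and the metformin livers from 8.34 to 9.40 (median 8.81), a difference of 0.69 (SE 0.33; 95% interval 0.00 to 1.38; unadjusted p = 0.0486, adjusted p = 0.278, limma), with 0.52 and 0.53 on its other probes. Without animal 1T-1 the differences of the 3 probes were 0.28, 0.20 and 0.03. The groups overlapped on every probe.

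The dimmer Grb10 probes were higher in HFD metformin liver at an unadjusted p under 0.05 and missed the adjusted threshold. ILMN_2546546 ran from 6.51 to 8.17 in controls and from 7.74 to 8.25 with metformin, a difference of 0.58 (SE 0.22; adjusted p = 0.169, limma). ILMN_1257352 ran from 5.33 to 7.02 in controls and from 6.12 to 7.24 with metformin, a difference of 0.50 (SE 0.23; adjusted p = 0.264, limma). The brightest Grb10 probe gave 0.07 (95% interval -0.11 to 0.26). Without animal 1T-1 the dimmer probes gave 0.74 (adjusted p = 0.0899, limma) and 0.66 (adjusted p = 0.139, limma).

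For the other members in HFD liver the metformin difference was 0.04 for Igf2 (95% interval -0.14 to 0.21), 0.08 for Dlk1 (-0.26 to 0.43), 0.04 for Igf2r (-0.24 to 0.32), -0.05 for Cdkn1c (-0.44 to 0.35) and -0.25 for Peg3 (-0.78 to 0.29). Cdkn1c, which was lowest in 1T-1, gave -0.28 without that animal (unadjusted p = 0.0265, adjusted p = 0.239, limma). The others without it were 0.09 for Igf2, 0.23 for Dlk1, -0.06 for Igf2r and -0.01 for Peg3, at an unadjusted p of 0.129 or more. Meg3 was not tested in liver, but its probe ILMN_1227149 was above background in 4 of the 6 HFD metformin livers, at 5.70, 5.05, 5.62 and 6.08, and in none of the 6 HFD control livers. The 2 remaining metformin livers, 3R-5 and 3R-6, stood at 4.44 and 4.77, the controls ran from 4.51 to 5.09, which overlapped, and the other Meg3 probe was above background in 1 of the 12. Erythroid markers in the HFD livers averaged 9.90 to 10.8 in controls and 10.5 to 10.8 with metformin, with 8 of 9 detected on every array and Epb42 on none, and granulocyte markers 10.96 to 11.4 and 11.4 to 11.6, with 9 of 9 detected; their part in these values was not tested.

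In RD liver, both sexes together, 0 of the 7 members passed, where 0.0697% of all genes did, and 1 had an unadjusted p under 0.05, where 8.14% of all genes did. Dlk1 differed by -0.42 (SE 0.17; adjusted p = 0.470, limma). In females the controls stood at 12.34, 12.70 and 12.78 and the metformin livers at 12, 12.23 and 11.54, all below the controls, a difference of -0.68 (adjusted p = 0.876, limma). In males the controls stood at 12.16, 12.03 and 12.57 and the metformin livers at 11.98, 12.17 and 12.12, which overlapped, a difference of -0.16. The difference between the sexes was -0.52 (95% interval -1.22 to 0.18; unadjusted p = 0.137, limma), and the second Dlk1 probe gave -0.07 over both sexes.

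All other members in RD liver lay between -0.42 (Peg3; 95% interval -0.96 to 0.11) and -0.01 (Igf2r; 95% interval -0.29 to 0.27) on their brightest probes. The difference of the metformin effect between HFD and RD male liver passed for 0 of the 7 members, where 0.139% of all genes did, and 0 had an unadjusted p under 0.05 on their brightest probe, where 13% of all genes did. The dimmer Grb10 probes gave 0.89 (adjusted p = 0.283, limma) and 0.85 (adjusted p = 0.341, limma) for that difference. The dimmest, ILMN_1257352, was above background in 0 of the 3 RD metformin males and entered only through the HFD livers. Without animal 1T-1 the brightest probes ran from -0.21 (Cdkn1c) to 0.39 (Dlk1), with Mest at 0.18 rather than 0.59 and Peg3 at 0.37 rather than 0.14, at an unadjusted p of 0.105 or more, and the dimmer Grb10 probes gave 1.05 (adjusted p = 0.160, limma) and 1.01 (adjusted p = 0.201, limma).

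In SAT, limma called 0 of the 7 members with metformin, and 0% of all genes; 0 members had an unadjusted p under 0.05, where 16.4% of all genes did. Mest was higher in value on all 3 probes. On ILMN_2846904 controls ran from 7.53 to 11.43 (median 10.68) and metformin samples stood at 10.77, 11.14, 11.53, 11.77 and 11.92, a difference of 1.16 (SE 0.56; 95% interval -0.05 to 2.37; adjusted p = 0.324, limma). The other probes gave 0.69 and 0.89. Without animal 1T-1 ILMN_2846904 gave 0.61 (unadjusted p = 0.0283, adjusted p = 0.254, limma), ILMN_2642417, the brightest, gave 0.20, and ILMN_2642418 gave 0.31. The paper's own SAT analysis used another normalisation and was combined with its earlier arrays. It listed Mest as higher with metformin at an adjusted p under 0.05 (moderated t-statistics). Among the other genes it listed were Ndn, higher, and Igf1 and Igfbp4, lower.

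Peg3 was lower in value in metformin SAT, with controls from 10.82 to 12.31 (median 11.16) and metformin samples at 10.52, 11.24, 10.77, 11.08 and 10.78, a difference of -0.56 (SE 0.29; adjusted p = 0.347, limma). The 2 highest controls were 1T-1 and 1R-4, and without both the difference was -0.15. Without both, the Mest differences were 0.43, 0.58 and 0.77 (adjusted p = 0.255, 0.184 and 0.173, limma). The dim Grb10 probe ILMN_1257352, which was not tested with all SAT arrays, then gave a measured -0.68 (adjusted p = 0.144, limma). It entered that test only through the remaining controls, and 2 of the 5 metformin arrays were above background, so the size is limited by background. Skeletal muscle markers averaged 5.69 in 1R-4, 7.78 in 1T-1, 7.10 in 1T-3, 10.1 to 10.3 in the other controls and 9.48 to 10.7 with metformin, with 6 of 15 detected on every control array and 12 of 15 on every metformin array. Brown adipocyte markers averaged 7.21 to 8.77 in controls, with 4 of 7 detected on every array and Elovl3 on none, and 8.39 to 9.498 with metformin, with 5 of 7 on every array; their part in the SAT values was not tested.

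Igf2, Dlk1, Cdkn1c, Grb10 and Igf2r differed in metformin SAT by -0.09 (95% interval -0.39 to 0.20), -0.07 (-0.49 to 0.36), -0.32 (-0.74 to 0.09), -0.10 (-0.51 to 0.32) and -0.15 (-0.40 to 0.09). Without the 2 controls they were -0.18, -0.15, -0.30, -0.17 and -0.10, at an unadjusted p of 0.168 or more, and without animal 1T-1 alone Dlk1 was at 0.00 and Grb10 at -0.01. The metformin effect in SAT minus that in liver passed for 0 of 7 members, where 2.08% of all genes passed, and 0 members had an unadjusted p under 0.05, where 21% of all genes did. With the arrays centred on the median all 7 passed, a setting under which the median of all genes moved to 0.86.

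In brain, metformin changed 0 of the 8 members, where 0.00935% of all genes passed, and 0 had an unadjusted p under 0.05 on their brightest probe, where 1.79% of all genes did. Meg3 stood at 7.97, 6.96 and 7.38 in controls and at 6.87, 7.70 and 8.31 with metformin, which overlapped, a difference of 0.19 (95% interval -0.66 to 1.04). Igf2 differed by 0.09 (95% interval -0.20 to 0.39). A dimmer Peg3 probe (ILMN_2677270) was higher in all 3 metformin brains, at 7.75, 7.92 and 8.04, than in the controls, at 7.01, 7.49 and 7.62 (difference 0.53; unadjusted p = 0.0161, adjusted p = 1, limma), whereas the brightest Peg3 probe gave 0.12.

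**Figure D4:**
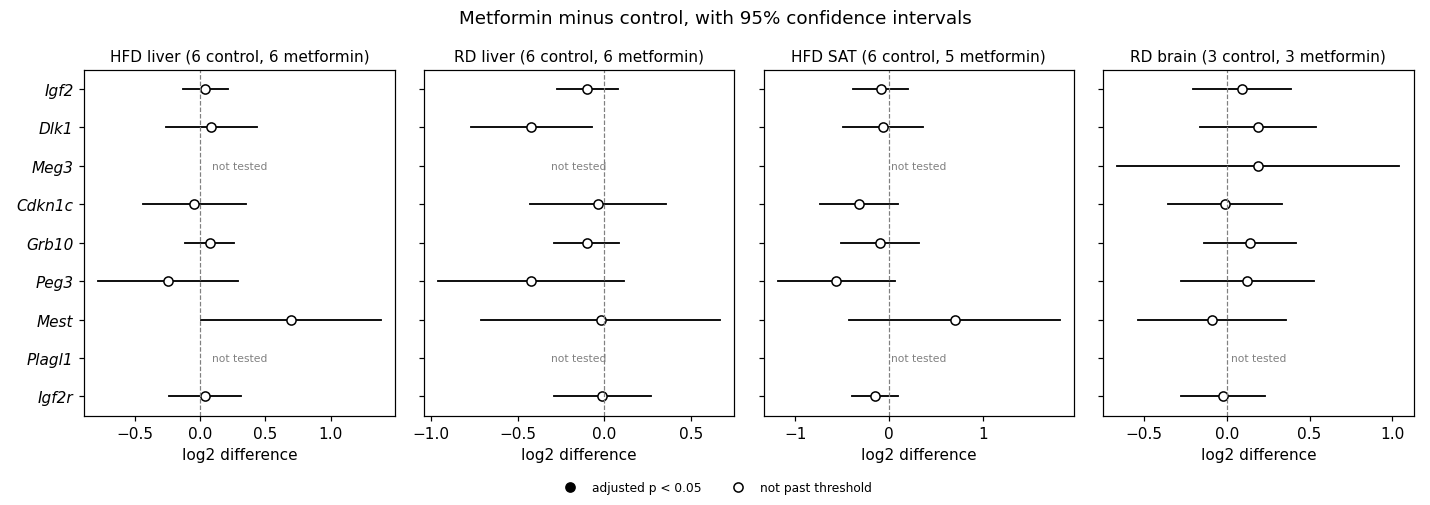
Log2 difference, metformin minus control, with its 95% interval for the brightest probe of each member tested (y axis) in HFD liver, RD liver, HFD SAT and RD brain; open points did not pass an adjusted p under 0.05. No point is filled, and within HFD liver and within SAT the widest intervals are those of Mest.

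Animal 1T-1 linked the tissues. Its Mest level was the lowest of the controls in liver on all 3 probes (6.08, 7.35 and 5.22) and in SAT on the same probes (7.53, 8.46 and 6.74), and its Peg3 was the highest in both (12.11 in liver, 12.31 in SAT). Its liver also held the lowest Cdkn1c, at 10.80 against 12.04 or more, and the highest Igf2 (15.47) and Dlk1 (11.61) of the control livers. In SAT its Igf2 was the lowest of the controls, at 14.69, and its Dlk1 the highest, at 14.04.

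Across the 11 HFD animals with both tissues, liver and SAT Mest gave Pearson's r = 0.82 (permutation p = 0.0250) and Spearman's rho = 0.40 (permutation p = 0.225). Over the 7 genes set side by side the adjusted p was 0.175, and r fell to 0.20 without the 2 animals farthest from the median, so the relation rested on those animals. No member passed after adjustment, and those other than Mest had r from -0.45 (Igf2) to 0.48 (Grb10). Across the 6 RD males with liver and brain, none of 7 members passed, at a lowest adjusted permutation p of 0.365.

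**Figure D5:**
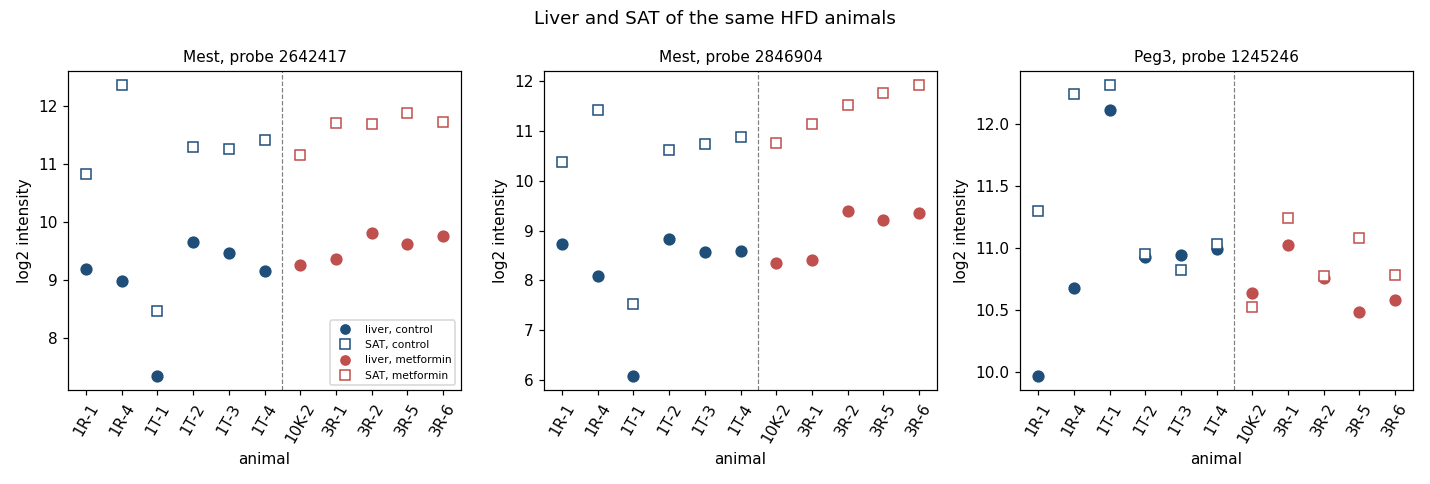
Log2 normalised intensity (y axis) of 2 Mest probes and of Peg3 in liver (filled circles) and SAT (open squares) of each HFD animal (x axis), for 6 control (blue) and 5 metformin (red) males. Animal 1T-1 is lowest in both tissues for Mest, at 7.35 and 8.46 on the first probe, and highest in both for Peg3, at 12.11 and 12.31.

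Other imprinted genes were followed on a list of 59, of which 53 had a named probe. In HFD liver 0 of 27 tested passed with metformin in either direction, and 5 had an unadjusted p under 0.05, where 17.3% of all genes did. The 4 lowest p-values were those of Peg10, a retrotransposon-derived placental gene, at 0.65 (adjusted p = 0.0857, limma), Qpct at -0.49, Phlda2, a restrainer of placental growth, at 0.66 and Blcap at -0.28. The paper's own liver analysis, with another normalisation and its earlier arrays, listed Peg10 as higher with metformin at an adjusted p under 0.05 (moderated t-statistics). In RD liver 0 of 27 passed and 4 had an unadjusted p under 0.05, where 8.14% of all genes did. The 4 lowest p-values were those of Kcnq1ot1 (-0.70), H13 (0.34), Tspan32 (-0.54) and Rian (-0.89), the last a non-coding RNA of the Dlk1 and Meg3 cluster. In SAT 0 of 28 passed and 6, all higher, had an unadjusted p under 0.05, led by Ube3a (0.73), Ddc (1.13), Slc38a4 (0.40) and Ndn (0.50). Of all genes there 16.4% did, 834 higher and 698 lower of 9360 tested. In brain 0 of 35 passed and 1 had an unadjusted p under 0.05, where 1.79% of all genes did. The 4 lowest p-values were those of Begain (-0.37), Osbpl5 (-0.32), Gnas (0.36) and Atp10a (0.15).

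By diet, 3 of 27 other imprinted genes were higher with HFD and 10 were lower, with a median of -0.18, where 20.3% of all genes were higher and 16.9% lower. The 4 lowest p-values were those of Gnas, which encodes the stimulatory G protein alpha subunit, at -1.09 (adjusted p = 0.000125, limma), the amino acid transporter Slc38a4 at -1.58 (adjusted p = 0.000224, limma), Tssc4 at 0.66 and Snurf at -0.86. In SAT against liver 21 of 32 were higher and 9 lower, beside 40.0% and 28.0% of all genes, and in brain against liver 20 of 38 were higher and 9 lower, beside 41.3% and 37.5%.

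The IGF axis and fetal growth list held 21 genes, 20 with a named probe. Metformin changed 0 of 16 in HFD liver, 0 of 16 in RD liver, 0 of 15 in SAT and 0 of 13 in brain, where 0, 1, 2 and 0 had an unadjusted p under 0.05. Of all genes 17.3%, 8.14%, 16.4% and 1.79% did. In SAT the lowest p-values were those of the growth factor Igf1 (-0.59; adjusted p = 0.193, limma) and of Igfbp4 (-0.59), Insr (-0.43) and Igfbp7 (-0.28). By diet 5 of 16 were higher with HFD and 5 lower, beside the same 20.3% and 16.9% of all genes. Igfbp3, the main carrier of IGFs in adult serum, fell by 1.53 (adjusted p = 7.12e-06, limma) and Igfbp7 fell by 1.10, whereas Igfbp2, a carrier prominent in fetal life, rose by 0.92 (adjusted p = 7.34e-05, limma) and Gpc3, a glypican that restrains growth, rose by 1.18. In SAT against liver 8 of 17 were higher and 7 lower (40.0% and 28.0% of all genes), and in brain against liver 2 of 16 were higher and 12 lower (41.3% and 37.5%).

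The genes whose deviations from their group means were most like those of each member over the 24 livers were Sfxn1 (Pearson's r = 0.85) and Gnmt (0.82) for Igf2, Bcas3 (0.83) and Ildr2 (0.82) for Dlk1, Rdh5 (0.91) and Car3 (0.89) for Cdkn1c, Megf9 (0.88) and Zfp318 (0.85) for Peg3, Armc8 (0.92) and Lgals1 (0.92) for Mest, Cd47 (0.72) and Fcho2 (0.71) for Grb10, and Ankrd37 (0.86) and Vldlr (0.81) for Igf2r. Over the 11 SAT arrays they were Arsi (0.97) and Dpysl2 (0.96) for Igf2, Setd7 (0.91) and Jdp2 (0.90) for Dlk1, Lpp (0.92) and Cpz (0.92) for Cdkn1c, Irx3 (0.97) and Fut10 (0.97) for Grb10, Zfp280d (0.97) and Slc17a5 (0.97) for Peg3, H2ac11 (0.99) and Mphosph6 (0.98) for Mest, and Fst (0.98) and Gpc3 (0.94) for Igf2r. These values describe these arrays, which share the animals, and for the HFD groups they include animal 1T-1. No gene appears beside more than 1 member.

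Plagl1 was near background throughout. Its probe ILMN_2886742 was above background in 4 of 24 livers, at 5.45 in an RD metformin female, 5.12 in an HFD control and 5.56 and 5.49 in HFD metformin livers, and in 1 of 11 SAT arrays and none of 6 brains. The other 2 probes were above background on none of the 41 arrays.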

How the data were processed

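RNA of 41 tissue samples was hybridised to Illumina Mouse WG-6 v2 bead arrays. The authors deposited, for each array, summarised intensity values and detection p-values of 45281 probes, and a table of log2 values that they had made with lumi (variance-stabilised, robust spline). The scripts used the deposited intensity and detection p-value columns, and no column was left without a sample (0 unused). Intensities were background-corrected and quantile normalised with neqc (offset 16) over all 41 arrays. Dim probes were dropped unless all arrays of 1 group or more had a detection p under 0.05, which left 17547 probes for the 24 livers, 15848 for SAT and 19182 for brain. limma 3.58.1 in R 4.3.3 fitted groups by tissue, with Benjamini-Hochberg adjustment over all kept probes and a threshold of 0.05. Comparisons between tissues paired samples by the animal codes in the titles, with the animal as a random block (within-animal correlation 0.211 on HFD, 0.110 on RD). For a gene with several probes, the one with the highest mean over the arrays of a model stands for it. The named genes were all 10 members with every probe, the 4 smallest p-values of each list in a described comparison of metformin or diet, and the 2 most similar genes for each member. Members and lists were chosen with earlier results of these data known. An array was called set apart in its group, for a gene, by Dixon's criterion at 95%. Permutation tests drew 100000 resamples, or used all orders for the 6 RD males with liver and brain. The models were tested on simulated data. The number of arrays limits the precision. One metformin SAT array that the authors discarded for low signal was not analysed here. Promoter windows and gene positions are RefSeq's for GRCm38.p6.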

Additional observations from a re-analysis of the deposited data

Results flagged for a closer look

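Of 54 groups of 4 or more arrays looked at, 1 for each probe tested and group, 8 held an array far from the rest (14.8%), and 6 of these were animal 1T-1. Chance gives about 1 in 20, and over all genes of the same 4 groups the share was 8.97%, with 1 probe for each gene. The members' counts take every probe. The 8 came from 4 probes, 3 of Mest and 1 of Cdkn1c, and probes of 1 gene on the same arrays are not independent, so the shares are not like for like. By group, 4 of 14 member probes were set apart in HFD control liver, where 10.6% of all genes were, 0 of 14 in HFD metformin liver (6.25%), 2 of 13 in HFD control SAT (13.1%) and 2 of 13 in HFD metformin SAT (6.65%). In the HFD control livers the Mest of animal 1T-1 stood at 6.08, 7.35 and 5.22 on the 3 probes, where the next lowest controls stood at 8.09, 8.97 and 7.87, and its Cdkn1c stood at 10.80, where the next lowest stood at 12.04. In the HFD control SAT its Mest stood at 7.53 and 6.74 on 2 probes, where the next lowest stood at 10.38 and 9.78. In the HFD metformin SAT animal 10K-2 held the lowest Mest on 2 probes, 11.15 and 9.92, where the next lowest stood at 11.69 and 10.56. The gaps were not explained here.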

How the results depend on the processing

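The alternatives gave 1582 values for members; 83 that were not called had the other sign, 6 of them called. With arrays centred on the median, 2 members passed by diet rather than 5, and 7 passed for SAT minus liver rather than 0, including 6 that turned positive: Igf2 0.89, Dlk1 1.17, Cdkn1c 1.06, Grb10 1.23, Peg3 1.01 and Igf2r 0.94, beside 0.86 for the median of all genes. By diet the same centring turned Grb10 to -0.43 and Igf2r to -0.23, beside -0.57 for all genes (relative to it, 0.15 and 0.34). With the mean of the kept probes 3 passed by diet. Normalised within each tissue, Igf2r in brain against liver was 0.031, beside 1.16 for all genes (relative to it, -1.13).

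The cause of these changes was not tested beyond the shift of all genes. By diet Grb10 lost its call with all 41 arrays in 1 model (adjusted p = 0.153, limma), Peg3 with median centring (0.96; adjusted p = 0.0989, limma), and Mest (-0.52; adjusted p = 0.305, limma) and Igf2r (adjusted p = 0.05004, limma) with the mean of probes. Leaving out 1 array at a time, the members called ranged from 3 to 5 by diet, from 5 to 6 in SAT against liver and from 7 to 7 in brain against liver, and were 0 in the other comparisons. Without a replicate block for the animal, 5 members passed in SAT against liver, 7 in brain against liver and 0 for SAT minus liver. The block thus changed no count of members called. Over all genes, SAT minus liver called 209 with the block and 0 without it. The letter codes as a block gave 5 members by diet and 0 for metformin. Each code held 1 treatment and 1 diet, so this block cannot tell code apart from either.

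Over all genes, metformin called 59 in HFD liver (0 to 131 by setting), 0 in SAT (0 to 841), 7 in RD liver (1 to 62) and 1 in brain (0 to 4), and diet called 3743 (2364 to 5057). SAT minus liver called 209 (0 to 5075), and HFD minus RD 14 (0 to 41). Signal over background limits Meg3 outside brain, the dimmer Grb10 probe and Plagl1.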

Other observations

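Over the 24 livers, 11 of 21 pairs of members correlated at an adjusted permutation p under 0.05, 4 positively and 7 negatively. Within the 12 HFD livers 13 of 21 pairs did, and within the 12 RD livers and the 11 SAT arrays 0 of 21 did. The counts rest in part on outlying livers. The share among pairs of all genes was not measured, so the counts cannot be read as a trait of the members. Deviations from group means were shuffled freely across groups, which can make these p-values too small. Without the 2 livers farthest from the median, r was smaller in size for all 11 pairs and under 0.3 in size for 6 of them, among them Cdkn1c and Mest (0.78 to 0.25), Igf2 and Cdkn1c (-0.53 to -0.08) and Peg3 and Mest (-0.53 to 0.05); within HFD livers it was smaller for all 13 and under 0.3 for 5. Igf2 and Dlk1 gave Pearson's r = 0.73 over the livers (permutation p = 0.0001, adjusted p = 0.0021) and Spearman's rho = 0.63 (permutation p = 0.00108), and r = 0.55 without the 2 livers farthest from the median. Within HFD livers r was 0.79 (adjusted permutation p = 0.0204) and fell to 0.45 without the 2 farthest livers, so that within that diet the relation rested in part on them. Within RD livers r was 0.63 (adjusted permutation p = 0.221) and fell to 0.31.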
